A study of Drosophila montana and Drosophila virilis with 10 samples.

Results

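Cold acclimation in Drosophila virilis was examined by comparing whole flies kept at ambient temperature with flies that had been acclimated to cold. The members were the 4 D. virilis libraries among the 10 libraries of the series, chosen by their titles as 2 controls and 2 acclimated libraries, and no library of the other species entered any value below. Each library was made from messenger RNA of 20 pooled whole flies of strain TOY3F9, from Toyama in Japan, and was sequenced on SOLiD instruments. The stated ages were 27 and 28 days after eclosion in the controls and 29 and 30 days in the acclimated pools, so acclimation and stated age cannot be told apart. The labels of all 10 libraries give ages that go up by a day per library in order of deposit, and whether they are true ages is uncertain. The labels give neither the sex of the flies nor the temperature or length of the treatment. All flies were of 1 strain, and nothing in the labels tells whether the 2 pools of a group were reared apart. The p-values below set the difference between groups only against how far such pools differ, which may be technical variation.

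Cold acclimation is the gain in cold tolerance that an insect acquires after a period at low but harmless temperature. In flies it is known to involve remodelling of membrane lipids, protective metabolites such as sugars and free amino acids, maintenance of ion balance across epithelia, and in some species chaperones and small cold-responsive proteins. D. virilis belongs to a group of species whose northern members spend the winter as adults. Whole-fly RNA mixes gut, fat body, muscle, brain, cuticle and gonads. Fewer cells of a type and less RNA per cell cannot be told apart in it.

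The files count reads for 15342 FlyBase identifiers and do not pair them with names. None of them, 0 in number, was found in the table of gene names used here, which is for D. montana. Genes are therefore given by identifier, with no function attached, and tissue markers could not be checked.

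Between acclimated and control libraries 24 of 7692 tested genes (0.312%) differed at an adjusted p under 0.05 (quasi-likelihood F-test of edgeR, Benjamini-Hochberg adjusted). Of these, 14 were higher in the acclimated libraries (0.182%) and 10 were lower (0.13%), which is all that rose and fell mean below. The genes that rose did so by 2.52-fold to 12.1-fold, with a median of 4.19-fold, and those that fell did so by 2.63-fold to 47.5-fold, with a median of 6.05-fold. All 24 had acclimated and control libraries that did not overlap, in a table where 44.9% of tested genes had this property, 21.6% with higher and 23.2% with lower acclimated libraries. For every called gene the nearest acclimated and control libraries stood apart by more than 2-fold, from 2.21-fold to 11.1-fold in the upward and from 2.27-fold to 16.0-fold in the downward direction. The 95% interval of the change lay wholly beyond 2-fold for 9 rising and 7 falling genes, and its nearest bound was 1.87-fold for the least certain gene in each direction.

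The split between directions turned where library totals were used for scaling. With trimmed-mean (TMM) scaling 58.3% of the called genes rose. The share was close to this with DESeq2 size factors (11 of 19, 57.9%) and upper quartile scaling (13 of 21, 61.9%). With plain library totals 13 of 38 called genes rose (34.2%), and with totals taken without the 20 genes with the most reads 11 of 27 did (40.7%). These scalings moved the median log2 fold change of all genes from −0.01 to −0.13 and −0.15.

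**Figure D1:**
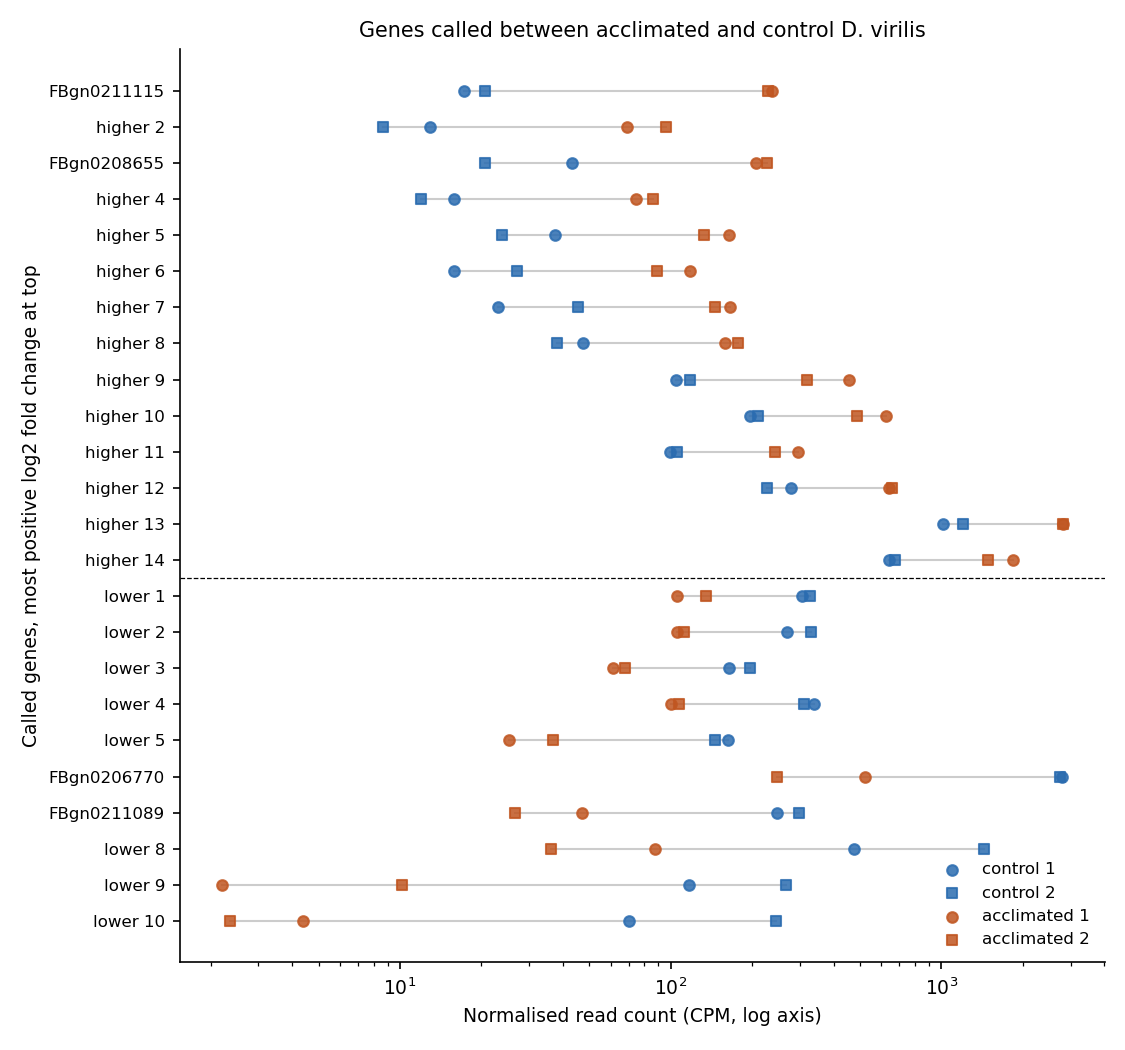
Normalised read counts (CPM, log axis) of the 24 called genes in each of the 4 D. virilis libraries, 1 row per gene ordered by log2 fold change, with genes that rose above the dashed line and genes that fell below it. Circles are pool 1 and squares pool 2 of each group; the blue and orange points of each row do not overlap, and in the bottom 3 rows the 2 controls lie 2.29-fold to 3.46-fold apart.

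Among the genes that rose, FBgn0211115 had the clearest separation. It had 17.2 and 20.6 CPM in the controls (12 and 19 reads) and 237 and 229 CPM in the acclimated libraries (216 and 293 reads). The acclimated pools differed by only 1.03-fold, and the lowest of them stood 11.1-fold above the highest control. On the log2 scale the change was 3.60 ± 0.26 (SE; edgeR adjusted p = 0.0021). It was called in each of the 4 fits that left out 1 library, but this is the rule by which it was chosen for naming and adds no support. Those fits gave log2 fold changes of 3.48 to 3.78.

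FBgn0208655 rose from 43.1 and 20.6 CPM in the controls to 206 and 227 CPM after acclimation. Its controls differed by 2.09-fold, the widest gap between controls among the genes that rose, but neither came within 4.79-fold of an acclimated library. On the log2 scale the change was 2.80 ± 0.33 (SE; edgeR adjusted p = 0.023). The adjusted p was 0.061 without control 2.

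The gene that rose with the most reads went from 1012 and 1201 CPM to 2805 and 2801 CPM, a 2.53-fold rise with close agreement between the acclimated pools. The next went from 641 and 674 CPM to 1831 and 1491 CPM. The other genes that rose had means over the 4 libraries of 46.7 to 452 CPM. The 8 largest rises were in genes with only 8 to 42 reads in a control library.

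Among the genes that fell, FBgn0206770 had the most reads. It had 2799.8 and 2752 CPM in the controls (1948 and 2538 reads), which differed by 1.02-fold, and 524 and 247 CPM in the acclimated libraries (477 and 316 reads). Both acclimated pools were far below both controls, but they differed from each other by 2.12-fold. On the log2 scale the change was −2.85 ± 0.32 (SE; edgeR adjusted p = 0.023). This gene too was chosen for naming because each of the 4 fits that left out 1 library called it. Those fits gave log2 fold changes of −3.48 to −2.40.

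FBgn0211089 fell from 247 and 297 CPM to 47.2 and 26.6 CPM. The groups did not overlap, with 5.24-fold between the nearest libraries. On the log2 scale the change was −2.91 ± 0.30 (SE; edgeR adjusted p = 0.022), and the adjusted p was 0.055 without control 2.

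The 3 deepest falls were also those in which the controls disagreed most. The third deepest had 476 and 1436 CPM in the controls and 87.8 and 36.0 CPM after acclimation. The other 2 had control pools 2.29-fold and 3.46-fold apart and 2 to 13 reads in each acclimated library, so their folds of 28.3 and 47.5 rest on few reads. The 4 smallest falls, of 2.63-fold to 3.12-fold, had controls within 1.22-fold and acclimated pools within 1.28-fold of each other. The widest ratio between acclimated pools was 1.43-fold for rising and 4.63-fold for falling genes.

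Calls were concentrated in genes with many reads. With the tested genes ordered by mean CPM and divided into 3 equal classes, 21 of the 24 lay in the upper class (0.819% of 2564), 3 in the middle (0.117%) and 0 by edgeR in the lower, where 197 genes had an unadjusted p under 0.05. The precision followed the same order, with a median standard error of the log2 fold change of 0.24, 0.35 and 0.56 in the 3 classes. In the upper class the 95% interval lay wholly within a 2-fold change in either direction for 69.3% of genes, in the middle class for 33.0% and in the lower class for 1.48%. By these intervals, taken gene by gene, 2660 of 7692 genes lay wholly within 2-fold and 65 wholly beyond it, 16 of them called and 49 not. For the other 4967, 8 of them called, the interval held a 2-fold change in at least one direction or, for 2 genes, could not be computed. At an unadjusted p under 0.05 there were 986 genes (12.8%), 552 higher (7.18%) and 434 lower (5.64%) with TMM scaling. This order turned with library totals, where 361 were higher and 648 lower.

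**Figure D2:**
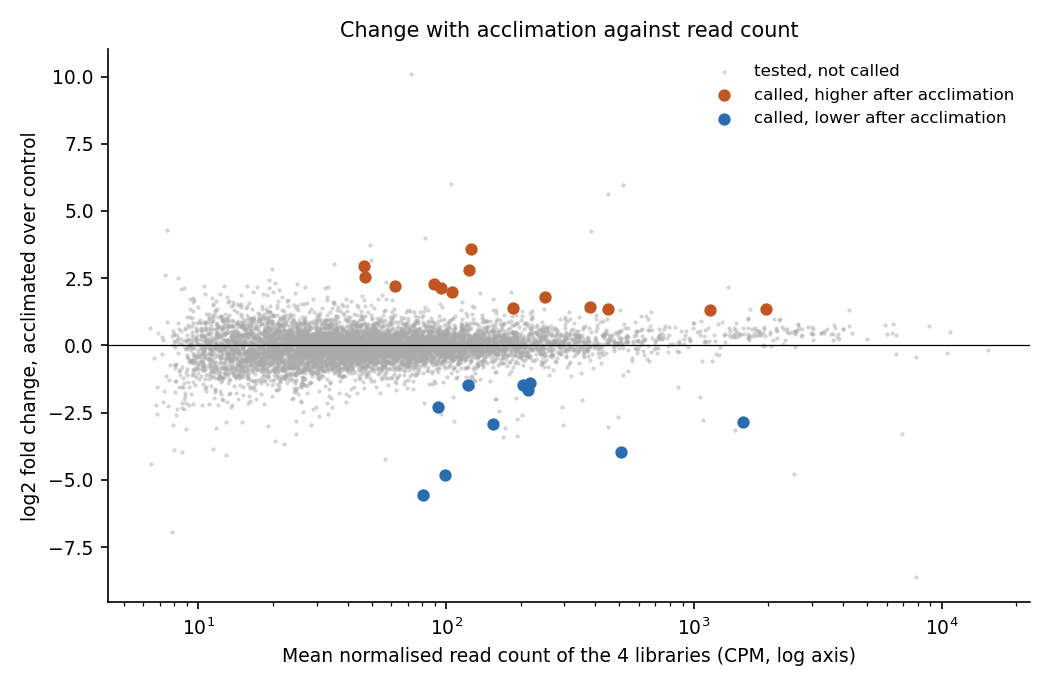
Log2 fold change, acclimated over control, against the mean normalised read count of the 4 libraries (CPM, log axis) for the 7692 tested genes, with the 14 called genes that rose in orange and the 10 that fell in blue. The grey cloud widens toward low counts, and the called genes lie at means of 46.7 CPM or more.

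Many differences as large as the called ones did not pass the test. A log2 fold change beyond 1 was estimated for 685 genes (8.91%), 283 higher (3.68%) and 402 lower (5.23%). Of these 24 were called, and 269 higher and 392 lower genes were not. Of those without a call, 241 and 355 had groups that did not overlap. Over all tested genes the share without overlap was 44.9%, and choosing genes by their fold change favours such genes. The median standard errors of the higher and lower genes without a call were 0.53 and 0.60, against 0.27 for the called genes. The threshold cut through a dense run of values. The highest adjusted p among called genes was 0.048, the next gene outside had 0.055, and 13 genes lay between 0.05 and 0.06. One gene just outside went from 414 and 408 CPM to 866 and 870 CPM, and another from 40.2 and 60.7 CPM to 6.59 and 6.26 CPM.

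Of the 146 genes with a mean over 1000 CPM, 3 were called and 10 more differed by over 2-fold without a call. In several of these the libraries separated, but pools of the same group lay far apart, in the examples below in both groups. One had 7434 and 17690 CPM in the controls and 2242 and 296 CPM after acclimation (log2 fold change −3.31, SE 0.79, edgeR adjusted p = 0.12). Another had 303 and 698 CPM in the controls and 1364 and 3105 CPM after acclimation (log2 fold change 2.16, SE 0.44, edgeR adjusted p = 0.086).

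Among the 20 genes with the most reads, 0 were called (edgeR), and 3 had an estimated change over 2-fold. The log2 fold change was above 0 for 14 of them under all 5 scalings. With TMM scaling 12 were higher in both acclimated than in both control libraries and 3 were lower in both, and with library totals the counts were 11 and 5. Of all 7692 tested genes, 1664 were higher (21.6%) and 1786 lower (23.2%) in this way with TMM scaling, and 1180 and 2358 with library totals. The gene with the most reads of all had 15830 and 16678 CPM in the controls and 13867 and 15113 CPM after acclimation, a log2 fold change of −0.17 (SE 0.11). The one closest to a call had 4949 and 4353 CPM in the controls and 8162 and 8040 CPM after acclimation (edgeR adjusted p = 0.055).

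The acclimated pools differed more from each other than the controls did. The median absolute log2 ratio between the 2 controls was 0.29 over the tested genes, and that between the 2 acclimated libraries was 0.38. Between groups it was 0.45 and 0.47 for the pairs with acclimated 1, but 0.35 and 0.36 for the pairs with acclimated 2. Over all tested genes acclimated 2 was thus no farther from either control than from the other acclimated pool. In the class with the most reads this order turned, with 0.29 to each control and 0.27 to acclimated 1. Ratios over 2-fold were seen for 7.53% of genes between the controls, 12.8% between the acclimated pools, 17.2% and 19.0% between acclimated 1 and the controls, and 9.92% and 10.5% between acclimated 2 and the controls. The same order of pairs with acclimated 1 above pairs with acclimated 2 was seen in each of the 3 classes of read count.

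**Figure D3:**
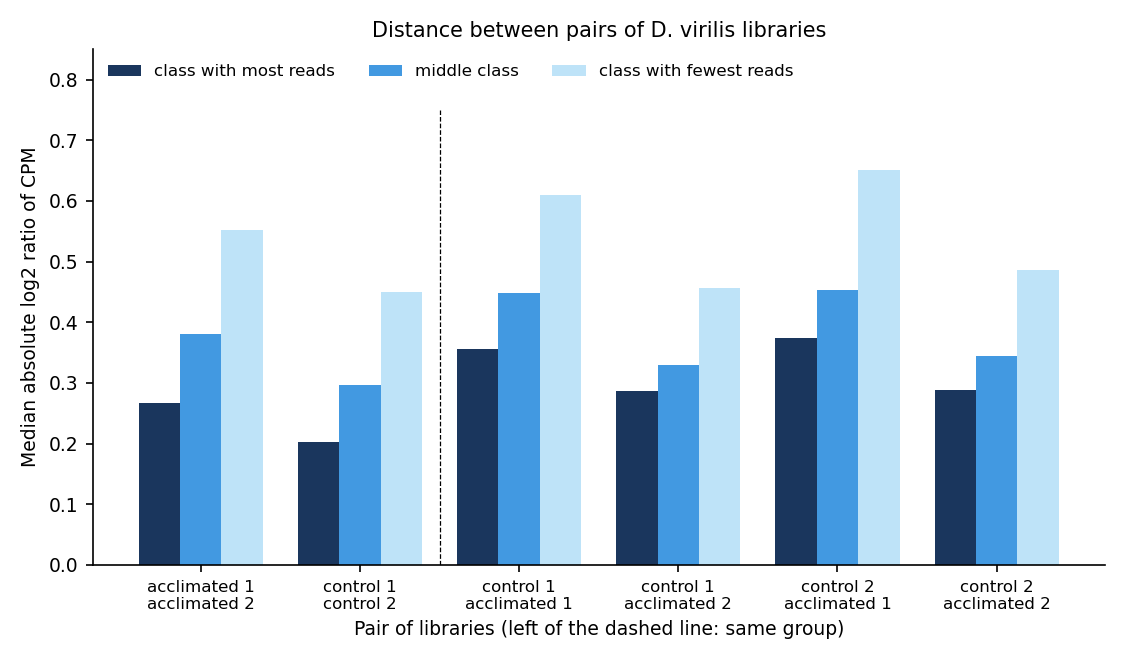
Median absolute log2 ratio of CPM for each pair of D. virilis libraries, in 3 equal classes of the tested genes by mean read count, with pairs from 1 group left of the dashed line and pairs across groups right of it. The bars for acclimated 1 against either control are the tallest, and those for acclimated 2 against the controls are taller than those for the 2 acclimated pools only in the class with the most reads.

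More genes were called where the controls supplied the spread than where the acclimated pools did, but the number also varied widely within each case. With 1 control left out, the spread came from the acclimated pair, the biological coefficient of variation was 29.8% in both fits, and 29 genes were called without control 1 and 4 without control 2. Of the original 24 genes, 11 and 2 were among them. With 1 acclimated library left out, the spread came from the controls, the coefficient was 21.6% without acclimated 1 and 21.5% without acclimated 2, and 95 and 214 genes were called, all 24 among them in both cases. With all 4 libraries it was 25.1%. Each of the fits that left out 1 library assumes that the lone library of a group varies like the 2 of the other. The filter was applied anew in each of them, so 8056 to 8162 genes were tested, against 7692 with all 4 libraries. The split shifted too, from 58.3% higher to 7 of 29 (24.1%) without control 1, 1 of 4 (25.0%) without control 2, 46 of 95 (48.4%) without acclimated 1 and 138 of 214 (64.5%) without acclimated 2. In all, 2 genes were called in 4 of these fits, 9 in 3 and 13 in 2.

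Other tools made more calls on the same genes. DESeq2's Wald test called 93 genes, 60 higher and 33 lower, but gave an adjusted p to only 2473. These included 21 of the 24 edgeR genes, all of them called, while the other 3 received none. Limma-voom called 52 genes, of which 50 were also among DESeq2's. All 3 tools called 19 genes, 11 that rose and 8 that fell, and 3 were called by edgeR alone. Looser filters on low counts tested more genes and called more. With no filter beyond 1 read 398 of 13038 tested genes were called, the most under any setting. When genes needed 1 CPM in 2 libraries 157 of 10997 were called, against 24 of 7692 with the default filter.

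**Figure D4:**
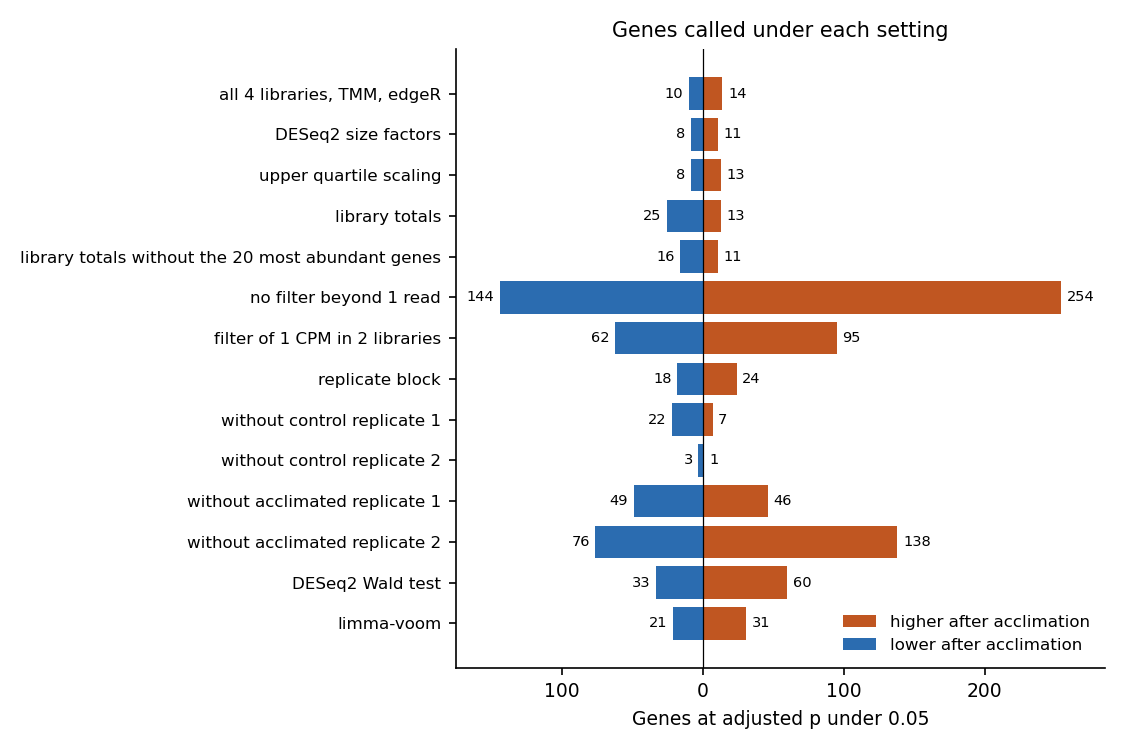
Number of genes at an adjusted p under 0.05 under each setting, with genes higher after acclimation to the right of 0 and genes lower to the left. The number of tested genes was not the same under all settings. Counts ran from 4 without control 2 to 398 with no filter, and the fit of all 4 libraries gave 14 and 10.

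Libraries differed in ways other than the treatment. Reads on genes numbered 650517 and 931704 in the controls and 987461 and 1316804 in the acclimated libraries, so that 0 reads leave room for 4.31 CPM in the shallowest and 2.35 CPM in the deepest library with TMM-scaled totals (a floor of 3 counts, which covers counting error only). Reads with several alignments were 75.6% and 77.6% of the controls and 82.7% and 83.4% of the acclimated files, and genes received 9.54% and 9.55% against 6.85% and 7.78%. With 2 libraries a group the exact permutation test cannot give a two-sided p below 0.33, the value for both shares. The 100 genes with the most reads took 28.9% and 33.7% of gene reads in the controls and 34.9% and 33.7% after acclimation. For the top 1, 10 and 1000 genes the mean shares were 2.39%, 10.6% and 63.5% in the controls and 1.37%, 8.88% and 67.3% in the acclimated libraries. The part that these differences have in the gene results was not tested.

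Control 1 had the fewest reads and the most identifiers detected, 11774, against 10593 in control 2, 9949 in acclimated 1 and 11300 in acclimated 2. At the depth of control 1, the other libraries would be expected to show 10210, 9616 and 10438 identifiers. Control 1 had 3692 identifiers with 1 to 5 reads, against 2014 to 2744 in the other libraries. At equal depth control 2 and acclimated 2 lay close together, between control 1 above and acclimated 1 below, so detection did not separate the groups (difference in means −965 identifiers, exact permutation test, two-sided p = 0.67).

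**Figure D5:**
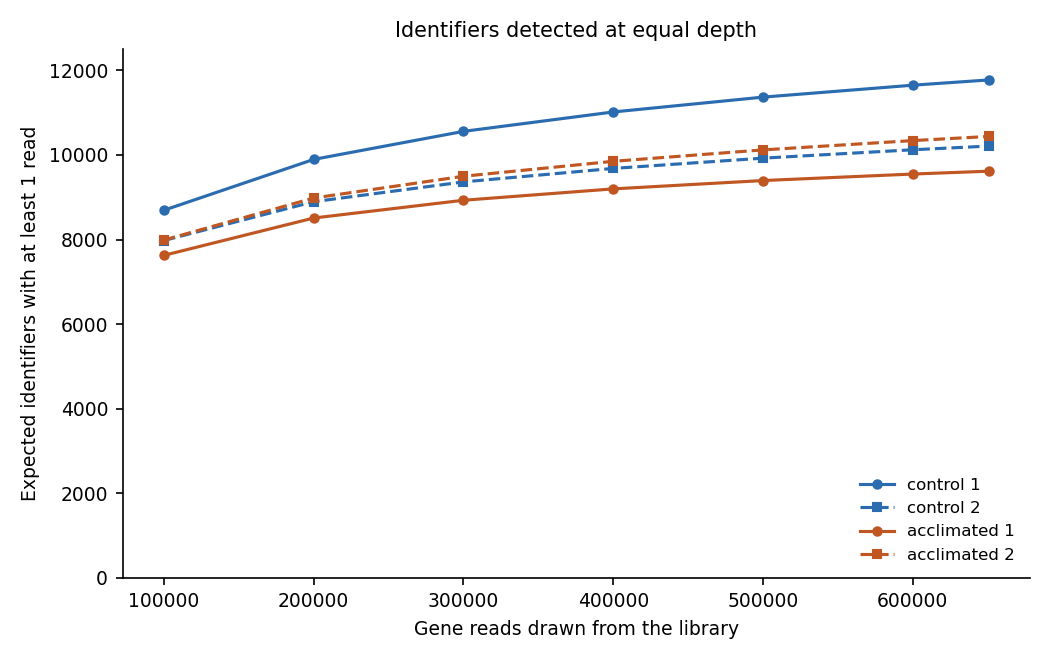
Expected number of identifiers with at least 1 read when gene reads are drawn from each D. virilis library without replacement, up to the 650517 reads of control 1. Control 1 lies above the other libraries at every depth drawn, acclimated 1 lies lowest, and control 2 and acclimated 2 lie between them.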

How the data were processed

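The deposited files hold raw read counts per gene identifier, made by the authors with HTSeq, as the submitters' processing notes record. How reads were aligned and against which build and annotation, and whether counting used strand, is not given in the sources used here, so overlapping and near-identical genes are uncertain. The 5 counter lines per file, 90.5% to 93.2% of its reads, name no gene and entered neither library sizes nor tests. The 4 D. virilis libraries were fitted alone with edgeR 4.0.16 in R 4.3.3 (default filter by group, minimum count 10 and total 15; TMM scaling; quasi-likelihood F-test; Benjamini-Hochberg adjustment over all tested genes; threshold 0.05). Standard errors are the unshrunken log2 fold change over the square root of F. CPM uses TMM-scaled library sizes. Library distances use log2 CPM with a prior count of 2. Equal-depth detection is the hypergeometric expectation. DESeq2 1.42.0 and limma 3.58.1 (voom) were alternatives. The test was checked on counts simulated with the same spread for all genes, so the check does not cover genes whose pools differ widely.

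The members, lists and tests were chosen with earlier results of these data known. Reported identifiers were 2 that rose and 2 that fell, taken among called genes without overlap by the number of fits leaving out 1 library that also called them, then by adjusted p. Other genes are given without identifier. Gene lists could not be matched, and 0 were tested. The labels do not say whether same-numbered pools share anything beyond the number.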

Additional observations from a re-analysis of the deposited data

How the results depend on the processing

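The count of 24 called genes stayed within 1.5 times with DESeq2 size factors (19) and upper quartile scaling (21). It was 38 with library totals (25 lower), and totals without the 20 genes with the most reads gave 16 lower genes. It was 398 of 13038 tested genes with no filter beyond 1 read (254 higher, 144 lower). With 1 CPM in 2 libraries it was 157 of 10997 (95 and 62). DESeq2's Wald test gave 93 (60 and 33) and limma-voom 52 (31 and 21). Leaving out 1 library gave 4 to 214 calls, 1 to 138 higher and 3 to 76 lower. The replicate block gave 42 calls (24 higher, 18 lower), all 24 genes among them, but the deviations of same-numbered pools correlated at −0.05 over genes, so the numbers are not shown to pair the pools.

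Over 13 alternatives each, FBgn0211115 had log2 fold changes of 3.46 to 3.78 and FBgn0206770 −3.48 to −2.40, both called throughout. FBgn0208655 and FBgn0211089 missed the threshold only without control 2 (log2 fold change 2.36 and −2.73). The alternatives include the fits that left out a library, and the named genes were chosen by how many of those called them. Calls in those fits therefore add no support. In the alternatives that kept all libraries, these genes were called each time.

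Over reads placed once, genes received 39.1% and 42.5% in controls and 39.6% and 46.8% after acclimation. The means, 40.8% and 43.2%, had the order opposite to that over all reads, but the groups overlapped. Leaving out 1 library gave 9.54% to 9.55% and 6.85% to 7.78% over all reads. Over all reads of a file the top 1, 10, 100 and 1000 genes took 0.229%, 1.01%, 2.99% and 6.06% in controls and 0.101%, 0.649%, 2.51% and 4.92% after acclimation. The cause of these shifts was not tested. With the default filter edgeR called 0 genes in the class with the fewest reads, and the part of depth in this was not tested.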

Other observations

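Some genes differed more between the pools of 1 group than any called gene did between groups. They were chosen after their values had been seen. FBgn0204552 had 43.1 CPM in control 1, 31282 CPM in control 2 and 46.1 and 33.6 CPM in the acclimated libraries, and took 3.10% of the gene reads of control 2, the largest share of any gene in any of the 4 libraries. A second gene showed 9719 CPM in control 2 against 43.8 to 311 CPM in the other libraries. In acclimated 2, a pair of genes reached 1749 and 2003 CPM against 14.4 to 26.3 CPM in the other libraries. None of the 24 called genes was among the 10 of 7692 tested genes with the widest difference between the pools of either group. The test counts such a difference against a call, so this says little about how well the called genes repeat.

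Few genes were seen in 1 group only at more than a few reads. Reads were found only after acclimation for 694 identifiers and only in controls for 1288, and 2304 had none in any of the 4 libraries. With at least 10 reads in each library of one group and 0 in both of the other, there was 1 identifier in the acclimated direction and 0 in the other. It had 247 and 23 reads after acclimation, which is at least 61.8-fold higher over the group than the limit that 0 reads in both controls allow (3 counts over the group). The bound rests on acclimated 1, since acclimated 2 alone gives at least 9.21-fold. The gene passed the default filter and was tested but not called (edgeR adjusted p = 0.12). It was called with no filter beyond 1 read (edgeR adjusted p = 1.6e-35). That setting lowered the adjusted p of other genes too, for FBgn0211115 from 0.0021 to 1.2e-26 (edgeR), so the small value is not particular to this gene.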
